A study of Homo sapiens with 2 samples.

Results

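The genes described here build, load and switch on the surface display of peptides to T cells: HLA-B, HLA-C and HLA-E, which encode class I heavy chains, B2M, which encodes their light chain, TAP1, TAP2 and TAPBP, which encode the peptide transporter and its partner, and NLRC5 and CIITA, which encode transcriptional regulators. They are 9 of 20136 protein-coding genes. A peak of LSD1 (KDM1A), a demethylase of histone H3 that acts in corepressor complexes, was assigned to a gene when any base of it overlapped the annotated gene body or lay within 10 kb of it on hg19, which gave 16 of the 20110 deposited peaks. The peaks came from PC-3M-luc, a luciferase-expressing human prostate carcinoma line, grown in serum-containing medium, labelled with the genotype "Control" and used at passages 17 to 20. The series has 1 LSD1 chromatin immunoprecipitation (ChIP-seq) library, made with an Abcam antibody, and 1 input DNA library from the same line, with no treatment, knockdown or second line. With a single library per arm, no value could be set against replicate spread and no p-value was computed here. Read depth is not given in the sources used here. A gene called peak-free had no peak in the deposited list, and weaker binding at it cannot be told from none.

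Class I molecules carry peptides cut from cytosolic proteins to the cell surface, where CD8+ T cells and natural killer cells read them. Peptides enter the endoplasmic reticulum through the TAP1-TAP2 transporter, and tapasin, the product of TAPBP, holds an empty heavy chain with its light chain beside the transporter until a peptide binds. Transcription of the heavy chain genes and of B2M runs through a conserved upstream module of S, X and Y boxes on which NLRC5 acts, while CIITA acts on the matching module of class II genes; an upstream kappa B element (enhancer A) and an interferon-stimulated response element (ISRE) sit beside it at classical class I promoters. Many tumours lower this pathway, often reversibly.

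The upstream sequences of the genes are shown first, because they hold the regulatory elements for which class I promoters are known and can be read against the peaks. RefSeq promoter sequences were found for 6 of the 9 genes, HLA-B, HLA-C, B2M, TAP1, TAP2 and TAPBP. Each is the 250 bases before the start site, 5′ to 3′ in the direction of transcription, taken from the GRCh38.p14 table. Each RefSeq window used matched GRCh37 exactly and at 1 place on the gene's own chromosome, the only one searched. The positions given are those of that match. TAP1 had 2 entries, of which the one closest to the canonical start site was taken. Capitals mark CCAAT (Y box), TGACG (the core of the cyclic AMP response element, as in the X2 box), the enhancer A letters (GGGGA, any base, TCCC) and the ISRE letters (GAAA, any 2 bases, GAAA), each on either strand. They are reference letters, and the alleles that this line carries were not analysed here.
HLA-B (chr6:31324957-31325206, minus strand, no peak): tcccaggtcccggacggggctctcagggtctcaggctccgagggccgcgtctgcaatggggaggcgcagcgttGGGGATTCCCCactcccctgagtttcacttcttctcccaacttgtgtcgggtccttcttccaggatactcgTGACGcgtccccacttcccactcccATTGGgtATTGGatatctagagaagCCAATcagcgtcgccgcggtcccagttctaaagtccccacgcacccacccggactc
HLA-C (chr6:31239870-31240119, minus strand, no peak): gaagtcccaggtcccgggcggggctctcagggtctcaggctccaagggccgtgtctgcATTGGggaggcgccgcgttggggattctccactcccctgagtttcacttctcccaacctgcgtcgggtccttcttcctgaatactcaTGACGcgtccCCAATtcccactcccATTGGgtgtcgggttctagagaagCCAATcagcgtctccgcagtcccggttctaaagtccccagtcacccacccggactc
B2M (chr15:45003465-45003714, plus strand, under a peak): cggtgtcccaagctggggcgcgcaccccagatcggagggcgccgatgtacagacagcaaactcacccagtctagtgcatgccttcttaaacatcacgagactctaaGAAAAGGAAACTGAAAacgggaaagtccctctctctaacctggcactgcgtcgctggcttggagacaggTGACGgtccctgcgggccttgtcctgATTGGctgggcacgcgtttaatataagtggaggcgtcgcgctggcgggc
TAP1 (chr6:32821482-32821731, minus strand, under a peak): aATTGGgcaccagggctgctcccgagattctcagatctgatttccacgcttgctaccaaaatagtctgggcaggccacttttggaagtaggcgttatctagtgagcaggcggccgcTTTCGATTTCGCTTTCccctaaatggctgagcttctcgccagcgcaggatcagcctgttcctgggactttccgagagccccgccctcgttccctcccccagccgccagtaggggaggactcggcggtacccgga
TAP2 (chr6:32806517-32806766, minus strand, 209 of 250 bases under a peak): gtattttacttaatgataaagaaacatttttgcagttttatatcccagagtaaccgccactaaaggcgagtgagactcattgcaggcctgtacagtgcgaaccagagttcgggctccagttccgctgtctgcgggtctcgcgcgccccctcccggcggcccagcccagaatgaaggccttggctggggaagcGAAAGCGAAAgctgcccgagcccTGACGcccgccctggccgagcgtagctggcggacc
TAPBP (chr6:33281856-33282105, minus strand, under a peak): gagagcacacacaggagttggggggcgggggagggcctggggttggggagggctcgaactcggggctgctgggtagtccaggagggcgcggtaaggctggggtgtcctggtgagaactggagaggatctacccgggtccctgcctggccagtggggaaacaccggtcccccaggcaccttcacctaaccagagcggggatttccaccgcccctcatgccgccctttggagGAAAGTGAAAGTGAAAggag

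LSD1 peaks lay at the promoters of the light chain, the transporter, tapasin and HLA-E, and none lay at or near HLA-B, HLA-C or NLRC5. A peak was present in the gene body or within 10 kb at 6 of the 9 genes, against 67.3% of all protein-coding genes. An annotated transcription start site (TSS) had a peak within 1 kb at 5 of 9 genes, namely HLA-E, B2M, TAP1, TAP2 and TAPBP, against 58.2% of all genes. In each of these 5 the peak covered a TSS itself, which 56.9% of all genes showed, and a peak overlapped the gene body at 6 of 9 against 61.3%. These shares are near those of all genes, so they are no result about the 9 genes as a group, and the description below is of which genes had a peak and how strong it was. CIITA is the gene with peaks in its window and none at a TSS.

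**Figure D1:**
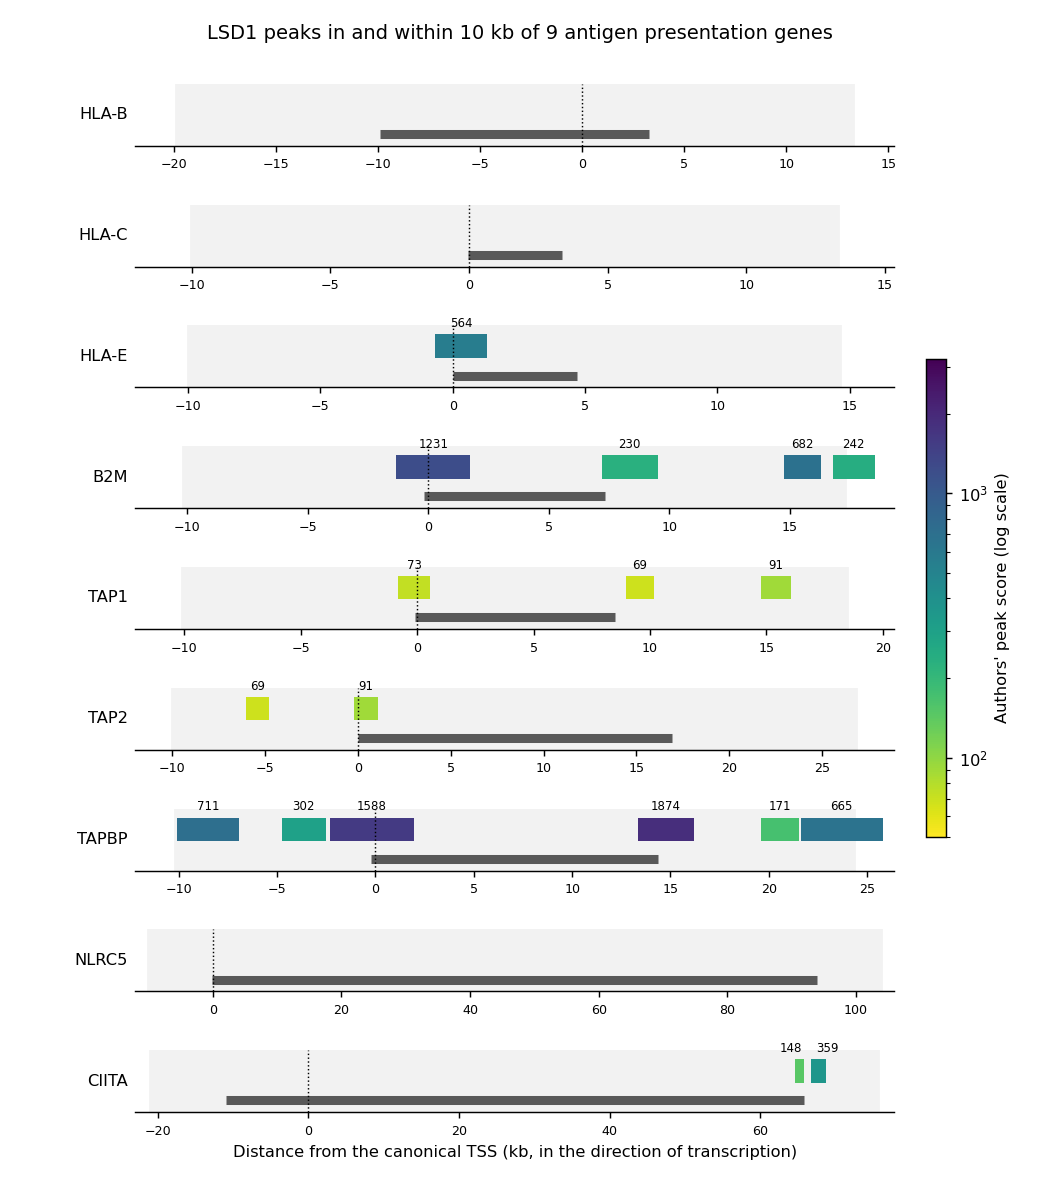
Position of each LSD1 peak (coloured boxes, with the authors' score above) relative to the canonical TSS (dotted line, 0 kb) of 9 genes, in the direction of transcription; the dark bar is the annotated gene body and the grey area the gene body with 10 kb on each side. Boxes straddle the dotted line at HLA-E, B2M, TAP1, TAP2 and TAPBP, the windows of HLA-B, HLA-C and NLRC5 hold none, and those of CIITA lie at its 3′ end.

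The heavy chain genes differed from one another. HLA-E, whose product presents leader peptides of other class I chains to natural killer cell receptors, lies at chr6:30457286-30461971 on the plus strand. Its single peak, chr6:30456619-30458566, was 1948 bp wide with a score of 564.37, higher than 76.1% of the list. The score is the authors' value for each peak, read here as the peak caller's -10 × log10 p, and serves only to rank peaks within this list. The peak ran from 667 bp upstream to 1280 bp downstream of the TSS and covered exons 1 to 3 of 8, with 610 coding bases. The next peaks on either side were 142929 bp below the gene and 21630 bp above it, so this was the only peak within 20 kb of the gene.

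HLA-B (chr6:31321649-31334844, minus strand) and HLA-C (chr6:31236526-31239907, minus strand) encode classical heavy chains that present peptides to CD8+ T cells. No peak overlapped the 33196 bp window of HLA-B or the 23382 bp window of HLA-C. The annotated body of HLA-B is long because some transcripts start about 10 kb upstream of the canonical TSS at 31324956, and no peak lay at those starts either. Both genes sit in 1 interval of 200878 bp without a peak (chr6:31166317-31367194), in which no other protein-coding gene lies whole and which is longer than 86% of all intervals between neighbouring peaks. It ends at a peak with a score of 497.11 (chr6:31367195-31368439), 32351 bp from HLA-B and close to a TSS of MICA, a stress-induced ligand of the activating receptor NKG2D. On the other side the nearest peak, with a score of 323.68 (chr6:31164581-31166316), was 70210 bp from HLA-C.

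B2M, the gene of the invariant light chain that every class I heavy chain needs, had a strong promoter peak. It lies outside the major histocompatibility complex (MHC), at chr15:45003556-45011049 on the plus strand. The promoter peak, chr15:45002394-45005456, was 3063 bp wide with a score of 1231.33, higher than 92.5% of the list, and reached 1321 bp upstream and 1741 bp downstream of the canonical TSS. It covered exon 1 with its 67 coding bases, and a TSS of PATL2 also lay under it. A second peak, chr15:45010899-45013239 with a score of 229.77, overlapped the last 151 bp of the annotated gene and no exon of the canonical transcript. The remaining peaks lay beyond the gene, at 7421 bp (chr15:45018470-45019999, score 682.4) and 9443 bp beyond its end (chr15:45020492-45022240, score 242.4). The last of these covered a TSS of TRIM69, a ubiquitin ligase gene of the tripartite motif family, and is the peak closest to the 10 kb limit on its inner side. The promoter peak had a CpG observed-to-expected ratio of 0.633, and the peaks at 229.77 and 682.4 had 0.224 and 0.204, so these are not CpG-rich sequence.

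The transporter genes had peaks at their promoters, with low scores. TAP1 (chr6:32812986-32821593) and TAP2 (chr6:32789610-32806516), both on the minus strand, encode the subunits of the transporter and lie in the class II region, with PSMB8 between them and PSMB9 beside TAP1. The last 2 genes encode catalytic subunits of the immunoproteasome. The TAP1 promoter peak, chr6:32820939-32822295, was 1357 bp wide with a score of 73.43, higher than 19.1% of the list. It covered the start sites of both TAP1 and PSMB9, which are transcribed away from each other, and the 250 bases printed above. The TAP2 promoter peak, chr6:32805420-32806725, was 1306 bp wide with a score of 90.94, higher than 27.1% of the list, and lay mostly downstream of the TSS, from 209 bp before it to 1096 bp after it, over exons 1 to 3 of 12. Another peak between them, chr6:32811295-32812528 with a score of 68.64, covered start sites of PSMB8 and PSMB9. The windows of TAP1 and TAP2 overlap, so this peak and that at the TAP2 promoter were assigned to both genes and the 18 assignments come from 16 peaks. None of the 3 peaks reached a score of 100, so each of these calls is lost when that score is required. Beyond TAP2 on the side of lower coordinates the next peak was 624031 bp away, across a stretch of 639840 bp that holds 10 protein-coding genes and is longer than 95.2% of all intervals between peaks.

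TAPBP had the strongest and densest LSD1 peaks of the 9 genes. It encodes tapasin and lies at chr6:33267471-33282061 on the minus strand, in a gene-dense part of the MHC. Its promoter peak, chr6:33279883-33284160, was 4278 bp wide with a score of 1587.55, higher than 95.4% of the list, and extended 2305 bp upstream and 1972 bp downstream of the canonical TSS, over exons 1 to 3 of 8. A second peak with a score of 1874.46, chr6:33265645-33268528, covered 1058 bp of exon 8, all of it non-coding, at the 3′ end of the gene. That peak also covered start sites of RGL2, an exchange factor of Ral GTPases, so proximity does not assign it to TAPBP rather than to its neighbour. In all, 6 peaks reached the TAPBP window and covered 49.7% of it. The others, with scores of 170.81 to 710.61, lay over start sites of the neighbouring genes RGL2, PFDN6, WDR46, ZBTB22 and DAXX.

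The regulators carried no peak at any of their start sites. NLRC5 (chr16:57023397-57117443, plus strand), the transactivator of class I genes, has 28 annotated start sites, and its window of 114047 bp held no peak. It lay in an interval of 235543 bp between peaks, longer than 87.9% of such intervals, with the nearest peaks 40357 bp below the gene (score 1741.58) and 101141 bp above it (score 306). CIITA (chr16:10960079-11036878, plus strand), the transactivator of class II genes, is transcribed from several alternative promoters in different cell types. None of its 16 annotated start sites had a peak within 1 kb. Its window held a peak with a score of 147.52 at its 3′ end (chr16:11035695-11036937), which covered a start site of DEXI, and a peak with a score of 359.41 (chr16:11037812-11039816), which began 934 bp beyond CIITA and covered a start site of CLEC16A. The first began 64636 bp downstream of the canonical CIITA TSS and 1119 bp from its nearest annotated start. Among the 4715 genes whose windows are at least as long as that of CIITA, 72.3% held a peak and 64.2% had one within 1 kb of a TSS.

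Scores at the 5 promoters with a peak ran from 73.43 at TAP1 to 1587.55 at TAPBP. The median of the 5 was 564.37, beside 480.07 over all genes with a promoter peak. Among those genes TAP1 stood at percentile 3.8, TAP2 at 6.42, HLA-E at 56.8, B2M at 85.1 and TAPBP at 90.8. The order of the scores was TAPBP, B2M, HLA-E, TAP2 and TAP1, and without a second library it cannot be said which neighbours in that order differ beyond technical spread. Counting any peak in the window, the median of the highest score was 461.89 over the 6 genes with a peak and 547.98 over all genes with one.

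**Figure D2:**
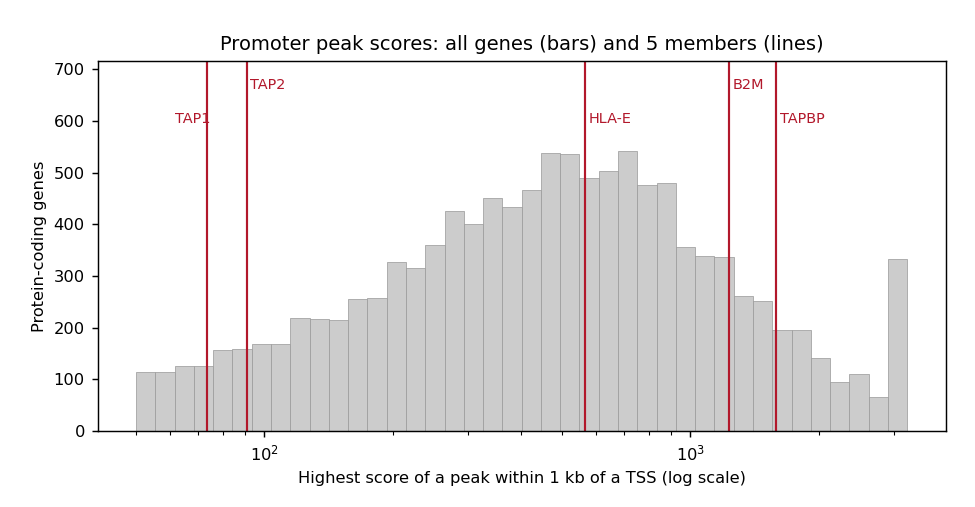
Number of protein-coding genes (bars) by the highest score of a peak within 1 kb of a TSS, on a log axis, with the 5 members that have such a peak as lines. TAP1 (73.43) and TAP2 (90.94) lie in the lower tail, HLA-E (564.37) near the middle, and B2M (1231.33) and TAPBP (1587.55) in the upper part.

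Genes with and without a promoter peak both had CpG-rich promoters. A promoter was called CpG-rich when the 1000 bp around its canonical TSS were above 55% in GC and above 0.65 in the ratio of observed to expected CpG. By this measure 7 of the 9 genes were CpG-rich, and 4 of those 7 had a promoter peak, beside 78.7% of all CpG-rich promoters. HLA-B (GC 64.2%, ratio 0.68), HLA-C (64%, 0.68) and NLRC5 (63.6%, 0.652) were CpG-rich and without a peak. HLA-E (60.3%, 0.768), B2M (60%, 0.722), TAP1 (66.3%, 0.7) and TAP2 (58%, 0.75) were CpG-rich with one. TAPBP (60.4%, 0.628) fell just under the limit on the ratio and had one of the high scores, and CIITA (52.6%, 0.252) was the other CpG-poor promoter, where 32.1% of all such genes had a peak.

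The MHC as a whole was not short of peaks. From GABBR1 to KIFC1 on chromosome 6, 102 of 159 protein-coding genes (64.2%, exact 95% binomial interval 56.2 to 71.6, counting error only) had a peak within 1 kb of a TSS, and 73.6% had one in the gene body or within 10 kb. The interval takes genes as independent, although neighbours such as TAP1 and PSMB9 can share a peak, so it may be too narrow. Over the extended MHC, from H2AC1 to KIFC1, the promoter share was 61%. Of the 6 members in this region 4 had a promoter peak.

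Reads from one class I gene can match another, and the labels name hg19 without saying which of its sequences the reads were mapped to. The reference itself was therefore measured: a word of 32 bases was called unique when it occurs once in the primary assembly of GRCh37 on either strand. Only exact matches were counted, so a word with a near-identical copy elsewhere still counts as unique. How the mapper treated such copies was not analysed here. Within 1 kb of the canonical TSS 84.9% of words were unique at HLA-B, 84.3% at HLA-C and 80.9% at HLA-E, beside a median of 98.9% over all promoters. Only 13.8%, 13.1% and 10.7% of all promoters were no more unique than these. B2M, TAP1, TAPBP and NLRC5 promoters were unique at 100% of words, CIITA at 99.3% and TAP2 at 89.3%. HLA-E had the least unique promoter of the 9 genes and a peak, and NLRC5 had a fully unique promoter and none. The HLA-E peak lay mostly downstream of the TSS. In 0.5 kb steps centred at 0.25 and 0.75 kb, 96% and 97.6% of HLA-E words were unique. Steps at -0.25 and -0.75 kb had 67.4% and 63.8%. HLA-B had 92.4% and 81% at 0.057 and 0.557 kb, and HLA-C had 89.2% and 80% at 0.093 and 0.593 kb.

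The repeated words at HLA-B and HLA-C were largely shared between these genes, and those at HLA-E were not. Around their start sites (1970 words each), 199 of the 297 repeated words of HLA-B also occurred at HLA-C, 10 at HLA-E, and 8 words were common to HLA-C and HLA-E. For HLA-B and HLA-C every repeated word (15.1% and 15.7%) recurs inside the MHC, whereas at HLA-E 8.53% recur there out of 19.1% that are repeated. Over the whole windows, 86.8% of words were unique at HLA-B, 78.7% at HLA-C and 76.3% at HLA-E. Among all promoters no more unique than that of HLA-B, 32.9% had a peak within 1 kb of a TSS, and among those of them that were CpG-rich, 70.6% of 840 did. The HLA-E peak was itself unique at 89.6% of its words, and the TAP1, TAP2 and TAPBP promoter peaks at 100%, beside a median of 98.2% over 1005 peaks taken at even steps through the list. These values describe the reference alone: the part of mapping in the missing peaks was not tested, and the HLA alleles of the line and the alternative MHC haplotypes of hg19 were not analysed here.

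**Figure D3:**
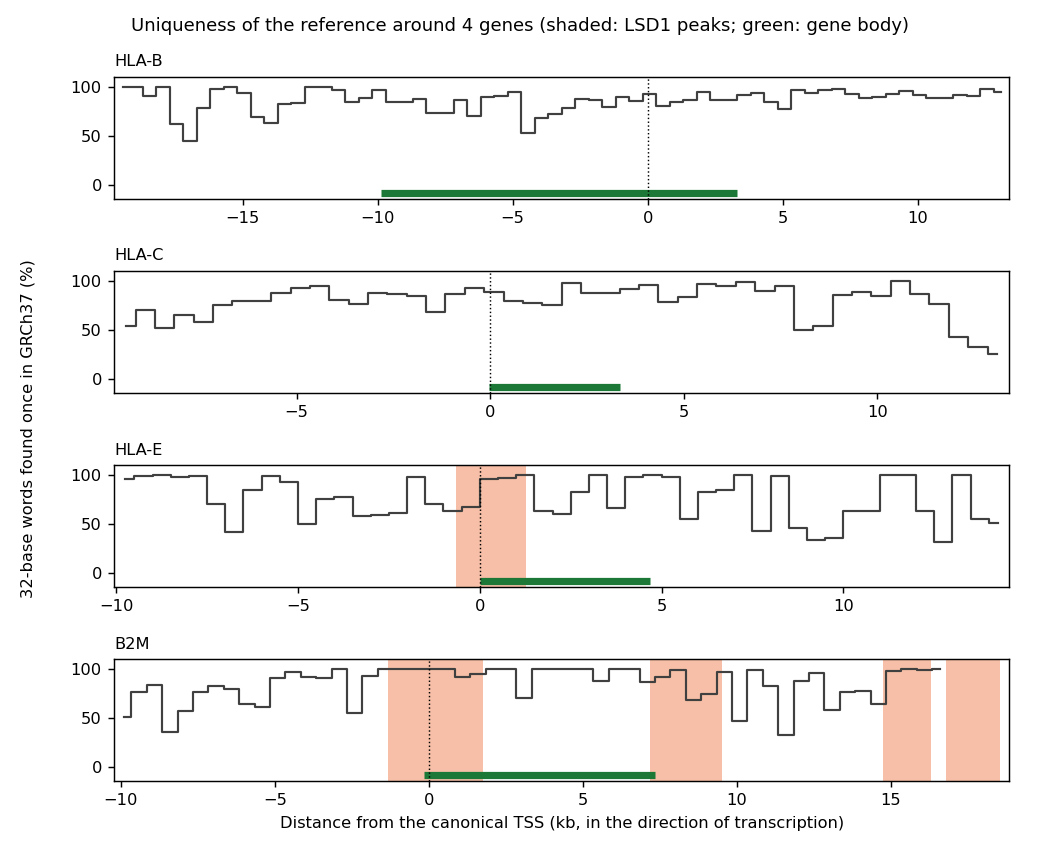
Share of 32-base words that occur once in GRCh37, in steps of 0.5 kb along the windows of HLA-B, HLA-C, HLA-E and B2M, by distance from the canonical TSS in the direction of transcription; shading marks LSD1 peaks and the green bar the gene body. The line stays at a like height at the TSS of HLA-B and HLA-C, which have no peak. At HLA-E, which has one, it dips lower upstream of the TSS and stands higher just downstream, where most of the peak lies.

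The elements can be read against the peaks at 6 promoters only, which is a description and no test. The ISRE letters occurred in the 300 bases around the start (250 before to 50 after) of B2M, TAP1, TAP2 and TAPBP, which all have a promoter peak, and in neither HLA-B nor HLA-C. Over 15318 promoters of the same length it occurred in 3.19%, in 2.49% of those of genes with a promoter peak and 4.31% of the others, so across all genes the letters were not more common at LSD1 peaks. At B2M they began 144 and 138 bases upstream of the start, at TAP1 134 and 128, at TAP2 58, and at TAPBP 20 and 14, with overlapping pairs at B2M, TAP1 and TAPBP. Only exact letters were searched, so a class I ISRE that departs from them is not counted.

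The X2 core and Y box letters both occurred at HLA-B, HLA-C and B2M; the S and X1 boxes were not searched. TGACG began 106 bases upstream at HLA-B, 105 at HLA-C and 75 at B2M, each followed by the CCAAT letters in reverse at 81, 80 and 49, and it also occurred at TAP2. It was found in 29.6% of all promoters and CCAAT in 36.6%, so a single match of either is common. The exact enhancer A letters occurred at HLA-B alone, 177 bases upstream on the plus strand and overlapping itself on the other strand, and in 0.477% of all promoters. A kappa B site that departs from these letters is not counted. The HLA-C sequence printed above reads ggggattctcc before actcccctgag, where HLA-B reads ggggattcccc. GGGCGG, the GC box, which is not capitalised, occurred at HLA-C, TAP1, TAP2 and TAPBP, and in 59.3% of all promoters. HLA-B and HLA-C were 88.5% identical over their aligned 300-base windows but shared no word of 32 bases there. Their identity to the window of B2M was 49.4% and 49.6%.

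The remaining genes of the pathway were read from lists of 38 genes, of which 22 had a peak within 1 kb of a TSS, again beside 58.2% of all genes. All 9 transcriptional regulators had one. The highest scores were at NFYA (1955.11) and NFYC (1896.14), which encode subunits of the factor that binds the Y box, at RFXANK (795.33), which encodes a subunit of the X box factor RFX, and at CREB1 (776.78), whose product binds the X2 box. Further genes, named after their values were seen, were IRF1 (292.98), which encodes an interferon-responsive factor that binds ISREs, and RFXAP (78.32), which encodes another RFX subunit. The call at RFXAP is lost when a score of 100 is required. Of the 9 promoters 8 were CpG-rich, a class in which 78.7% of all genes had a promoter peak. NLRC5 and CIITA, which act on the S-X-Y module through the factors bound to it, had none. The NLRC5 promoter is CpG-rich and that of CIITA CpG-poor, a class in which 32.1% of all genes had one. The difference from the 9 regulators is therefore a description of single genes and no result about either group.

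The immunoproteasome list had a promoter peak at 5 of 5 genes, beside 58.2% of all genes. Of these promoters 1 was CpG-rich, and of all CpG-poor promoters 32.1% had a peak. The others passed the limit on GC and fell under that on the ratio, with 0.629 at PSME1, 0.6 at PSMB8, 0.448 at PSMB10 and 0.382 at PSME2. PSMB10, which encodes a catalytic subunit, had the highest score (1386.68). PSME1 (1004.83) and PSME2 (498.79), the genes of the proteasome activator, followed. PSMB9 had 73.43, from the peak it shares with TAP1, and PSMB8 had 68.64. The calls at PSMB9 and PSMB8 are lost when a score of 100 is required. In the list of peptide trimming and folding, where 4 of 6 promoters were CpG-rich, 5 of 6 genes had one, beside the same 58.2%, with CALR (3100), a chaperone of newly made heavy chains, ERAP1 (2168.15), a peptide-trimming aminopeptidase, CANX (815.87), another chaperone, and PDIA3 (723.78), a thiol oxidoreductase of the loading complex. The value of 3100 recurs exactly at other genes, among them FLOT1 and VPS52, so it does not rank CALR against them. The remaining call of this list, at TAPBPL (81.19, named after its value was seen), is also lost when a score of 100 is required. ERAP2, an aminopeptidase gene, had no peak within 10 kb, and its promoter is CpG-poor (ratio 0.221).

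Promoter peaks were found at 2 of 7 class I relatives and 1 of 11 class II genes, beside 58.2% of all genes, 78.7% of those with CpG-rich and 32.1% of those with CpG-poor promoters. Among the class I related genes, of whose promoters 4 were CpG-rich, MICA (497.11) and MICB (249.63), both encoding stress-induced ligands, had one, and HLA-F, HLA-G, HFE, MR1 and CD1D did not. Of the class I heavy chain genes described here, HLA-E had a promoter peak, and HLA-B, HLA-C, HLA-F and HLA-G did not. In the class II list 10 of 11 genes had none, and all 11 promoters of that list were CpG-poor. The exception, HLA-DMA, which encodes part of a peptide exchanger of class II molecules, was counted through an alternative TSS under a peak of 8233 bp with a score of 3100 (chr6:32934910-32943142) that also covers a start site of BRD2. That peak began 14036 bp from the canonical TSS of HLA-DMA, and its score is the recurring value also seen at CALR.

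**Figure D4:**
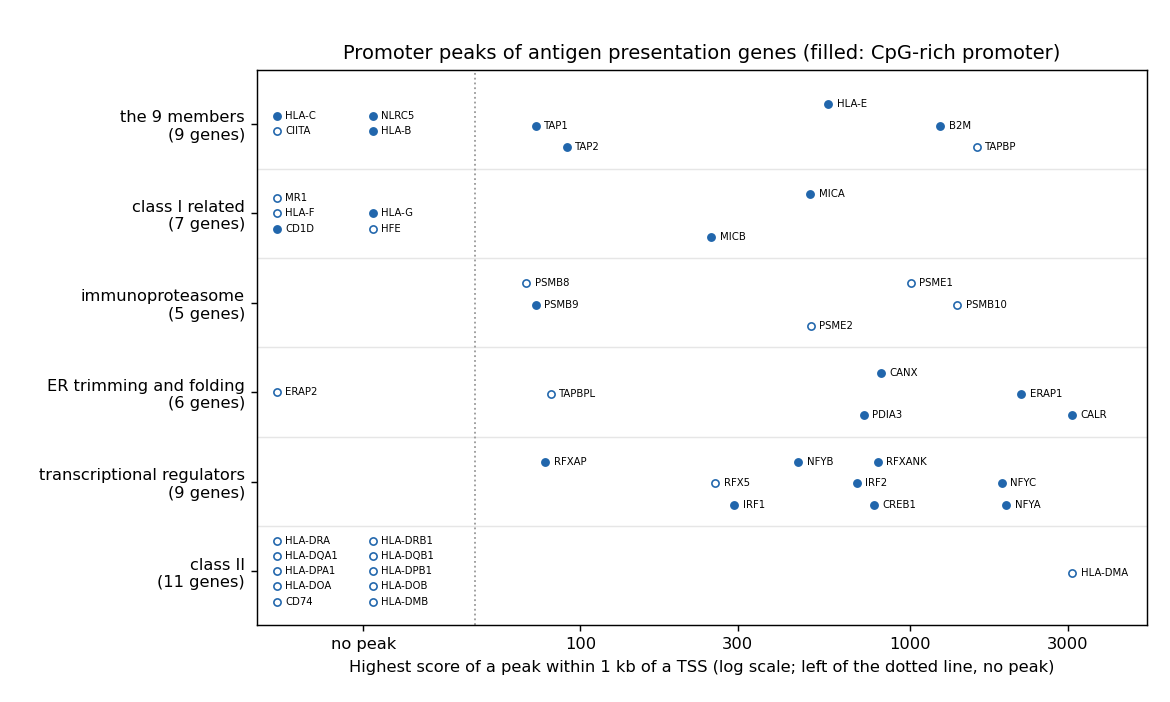
Highest score of a peak within 1 kb of a TSS (log axis) for the 9 members and for 5 lists of other antigen presentation genes; genes left of the dotted line have no such peak and their horizontal place there carries no value. Filled points are CpG-rich promoters: the 9 transcriptional regulators all lie to the right of the line, and 10 of the 11 class II genes lie to the left.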

How the data were processed

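The authors mapped the reads to hg19 with bowtie 2, per the labels' protocols, and MACS 1.41 and Bowtie2 are listed, with the builds mm10 and hg19, in the submitters' processing notes. Tool settings, read numbers (and so the depth) and the handling of duplicates and multiply mapped reads are not given in the sources used here. The deposited list gives the position and a score of each peak, 1 value column in all; it was taken as LSD1 called against input, and the authors' score as -10 × log10 p, from the sample titles, the caller named and the values (50 to 3226.07), since no label states either. All 24 chromosome names occur in GRCh37 and 0 peaks pass a chromosome end. BED starts were made 1-based.

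Genes and start sites came from GENCODE 44 on GRCh37 (20136 symbols). The 9 genes, the 5 pathway lists and the elements were chosen with earlier results of these data known; all 9 genes are named, and of each list up to 4 genes with the highest promoter score and the genes without a promoter peak where these are 5 or fewer. The MHC limits and the groups by uniqueness and window length were set after the peaks were seen. Background shares are over all protein-coding genes and are no test. Some genes of the pathway are not reported here. As a check of the counting code alone, simulated peaks were planted over the start sites of 200 among 1254 genes, and 100% were counted. That outcome follows from the planting and does not bear on the detection of binding. Promoters were aligned globally. Tools were biopython 1.88, matplotlib 3.10.9, numba 0.67.0, pysam 0.24.0, scipy 1.17.1, pandas 2.3.3 and numpy 2.4.6 under Python 3.11.15.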

Additional observations from a re-analysis of the deposited data

How the results depend on the processing

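No paired analysis was possible because the LSD1 and input arms hold a single library each. Main results were recomputed under alternatives 36 times, of which 29 stayed (a count within 1.5 times, a score unchanged) and 7 moved. With peaks at a score of at least 100, or at or above the median score, 3 members had a promoter peak, since TAP1 and TAP2 drop out, and the median of the highest score was 897.85 in both cases. With the gene body alone the members held 8 distinct peaks and that median was 355.945. The median over all genes was not recomputed. Nor was the share of all genes with a promoter peak at these score cutoffs, so the count of 3 members has no background beside it. With words of 24 bases, 82% of words in the members' windows were unique, against 88.4% with 32. The alternatives do not bear on HLA-B, HLA-C and NLRC5, whose nearest peaks lay 32351, 70210 and 40357 bp away, beyond the widest window of 20 kb. Which of these limits reflects depth was not tested, since read numbers were not given.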
